A study of Homo sapiens with 12 samples.

Results

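The glutathione transferases described here were 10 genes chosen by name, GSTP1, GSTA4, GSTM2, GSTM3, GSTM4, GSTK1, GSTO1, MGST1, MGST2 and MGST3, out of 57815 genes with a value in each library. All 10 were found by Ensembl identifier in tables of FPKM, a level counted in fragments per kilobase of transcript and scaled to library size. They were read in 12 RNA sequencing libraries of 3 established lines of human non-small cell lung cancer. A549 and H2023 are labelled lung adenocarcinoma and H460 large cell carcinoma, and all 3 lines, controls included, are labelled positive for a KEAP1 mutation. Each line was transfected with control siRNA or NRF2 siRNA and collected 48 h later, with 2 libraries in each of the 6 groups. Knockdown used siRNA 28 for replicate 0 and siRNA 30 for replicate 1. The spread within a knockdown group thus holds any difference between the siRNAs, and each line stands as 1 culture model of its tumour. A549 RNA was depleted of ribosomal RNA while H2023 and H460 RNA was selected by polyA, and A549 was grown in high-glucose medium while the other lines were grown in low-glucose medium. Protocol, medium and line cannot be told apart for A549, so its levels were not tested against those of H2023 and H460.

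Glutathione transferases join the tripeptide glutathione to electrophilic compounds, which makes these more soluble and marks them for export. The soluble enzymes fall into classes named by Greek letters, such as alpha, mu, pi, theta, omega and zeta, a kappa enzyme sits in mitochondria and peroxisomes, and the microsomal enzymes are unrelated proteins embedded in membranes. NRF2, encoded by NFE2L2, is degraded through KEAP1 in unstressed cells. When KEAP1 is lost, NRF2 accumulates and activates detoxification genes through antioxidant response elements (AREs), and several glutathione transferase genes are among its known targets in lung cancer cells and in normal tissue.

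Promoter letters are shown for the genes whose RefSeq window held the core ARE letters, since the knockdown lowers the factor that reads them. The motif searched was TGACNNNGC on both strands, in windows of 300 bases that run from 250 bases before to 50 bases after a RefSeq transcript start (table build GRCh38.p14, each window found once on GRCh37 by exact match). It occurred in 13.3% of 35116 such windows over all genes. Of the members 9 had a window (MGST2 is named only), 4 of these genes held the letters (4 of their 11 windows), and a match is a description of letters and not a binding site. The 250 bases before the GSTP1 start (chr11:67351033-67351282, plus strand, GRCh37) follow with the match in capitals, which begins at base -66 relative to the start and overlaps the AP-1 letters TGANTCA, present in 7.71% of all windows.
GSTP1: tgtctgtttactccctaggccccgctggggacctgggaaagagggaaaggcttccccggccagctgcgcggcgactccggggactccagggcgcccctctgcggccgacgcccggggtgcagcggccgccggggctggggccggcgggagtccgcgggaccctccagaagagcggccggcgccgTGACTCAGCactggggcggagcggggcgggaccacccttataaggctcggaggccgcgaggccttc

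The matches of the other 3 genes are given with 10 bases on each side, 5′ to 3′ on the strand of the gene, with the motif in capitals. The GSTA4 match (chr6:52860073-52860101, minus strand) begins at base -9 relative to the start. The GSTO1 matches (chr10:106014414-106014442 and chr10:106014479-106014507, plus strand) begin at bases -226 and -161. The MGST1 match (chr12:16500069-16500097, plus strand) begins at base 31 after the first of its 3 listed starts.
GSTA4: ccgggaccgcTGACCTGGCgctttgtgcg
GSTO1 upstream match: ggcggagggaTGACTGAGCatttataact
GSTO1 downstream match: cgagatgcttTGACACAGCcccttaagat
MGST1: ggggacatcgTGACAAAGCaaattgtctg
Among the members with these letters, GSTP1 and MGST1 had NRF2 siRNA libraries below the controls in every line, while GSTO1 and GSTA4 did not. Over all genes tested in every line, 7.20% had that order. GSTM2, GSTM3, GSTM4, GSTK1 and MGST3 held no match in these windows, which says only that the letters are not there. Of these, MGST3 was below its controls in A549 and H2023 but not in H460. A link between the letters and the response was not tested.

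The labels were checked first on the targeted gene. NFE2L2 fell in every line, with log2 fold changes of -2.24 (A549), -3.86 (H2023) and -3.60 (H460) on the log2(FPKM + 1) scale (limma, Benjamini-Hochberg adjusted p = 0.0178, 0.00529 and 0.0111). NQO1, a standard NRF2 target, fell as well, at -2.38, -3.15 and -1.95 on the same scale (limma adjusted p = 0.00950, 0.00713 and 0.0215). The epithelial keratins KRT8 and KRT18 were at 298 FPKM or above in every library, and the other listed epithelial genes varied by line. KRT7 was at 682 FPKM or above in A549 and H2023 and at 10.3 to 26.8 FPKM in H460. KRT19 was at 7.28 to 25.8 FPKM in A549 and 99.6 FPKM or above elsewhere. CDH1 and EPCAM did not exceed 1.19 FPKM in H460 and were at 6.23 FPKM or above elsewhere. The mesenchymal gene VIM was at 207.5 FPKM or above in every library, and CDH2 reached 21.6 FPKM. The lung lineage genes NKX2-1, NAPSA, SFTPB and SFTPC did not exceed 1.25 FPKM anywhere. The leukocyte gene PTPRC stayed at 0.47 FPKM or below, the fibroblast gene COL1A1 reached 7.61 FPKM, and the endothelial gene PECAM1 had no matched identifier. Genes of the mitochondrial genome took 0.892% to 1.56% of summed FPKM in A549, 11.97% and 18.1% in H2023 controls against 17.4% and 22.8% with NRF2 siRNA, and 8.56% and 13.1% in H460 controls against 20.8% and 26.0% with NRF2 siRNA.

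GSTP1 and MGST1 were lower after NRF2 siRNA in every library of every line, with group means at 41.8% to 54.7% and single libraries at 36.6% to 64.6% of the control mean. Of the other members, GSTK1 was above its controls in every library, MGST2 had a higher mean in each line but overlapped with its controls in H2023, and the rest had no common direction or were not tested in A549. In H460 GSTP1 and MGST1 fell and GSTM2 rose past an adjusted p of 0.05. Of all genes tested there, 6.86% passed as lower and 7.12% as higher. In that line 5 of 10 members had an unadjusted limma p under 0.05, as did 33.7% of genes. The MGST1 call was lost when FPKM was rescaled without mitochondrial genes or by the upper quartile. In A549 0 of 9 tested members and in H2023 0 of 10 passed, and 3 and 4 of them had an unadjusted limma p under 0.05, as did 13.3% and 16.9% of all genes tested. With a replicate block MGST1 and MGST3 passed in H2023, where 711 genes did. A line entered its test with 4 libraries, which leaves 2 residual degrees of freedom.

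GSTP1 (ENSG00000084207.11, chromosome 11, 67351213 to 67354127, plus strand, GRCh37) encodes the pi-class enzyme, a cytosolic transferase that many carcinomas express in large amounts. Its level was 1202 and 1176 FPKM in A549 control libraries and 610 and 691 FPKM with NRF2 siRNA. In H2023 it was 423 and 356 FPKM in controls and 174 and 252 FPKM after knockdown. H460 controls stood at 360 and 386 FPKM against 136 and 190 FPKM with NRF2 siRNA. The groups did not overlap in any line, and siRNA 28 gave the lower library of the pair each time. The log2 fold change was -0.87 ± 0.16 in A549 (SE, limma adjusted p = 0.117), -0.89 ± 0.23 in H2023 (adjusted p = 0.167) and -1.205 ± 0.25 in H460 (adjusted p = 0.0326). The drop passed the threshold in H460, and its size differed between H460 and A549 by -0.33 ± 0.31 and between H460 and H2023 by -0.32 ± 0.31 (SE, limma adjusted p = 0.578 and 0.582), less than the error could resolve. The paper, by a different test of the same lines, lists GSTP1 among the genes that NRF2 knockdown lowered in each of them.

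MGST1 (ENSG00000008394.8, chromosome 12, 16500076 to 16762193, plus strand) encodes the microsomal transferase of the endoplasmic reticulum and the outer mitochondrial membrane, which also reduces lipid peroxides. A549 controls held 423 and 292.5 FPKM and the NRF2 siRNA libraries 164 and 163 FPKM. H2023 controls held 1218 and 1127 FPKM and the knockdown libraries 529 and 451 FPKM. In H460 the control libraries were at 852 and 747 FPKM and the knockdown libraries at 407 and 365 FPKM. Again no knockdown library reached a control library of its line, and the 2 siRNAs gave nearly the same value in A549. The log2 fold change was -1.10 ± 0.20 in A549 (SE, limma adjusted p = 0.129), -1.26 ± 0.17 in H2023 (adjusted p = 0.0556) and -1.05 ± 0.24 in H460 (adjusted p = 0.0405). When FPKM was rescaled without mitochondrial genes or by the upper quartile, MGST1 passed in H2023 and no longer in H460. With a replicate block, which pairs same-numbered libraries, it passed in both. The effect did not pass a test of difference between the lines (limma F test, adjusted p = 0.874).

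Taking each line as 1 value, a test added after the data were seen, MGST1 fell on average by 1.14 on the log2 scale (SE 0.16, 3 lines, limma adjusted p = 0.0462). GSTP1 averaged -0.99 ± 0.17 (adjusted p = 0.0707), and none of the other 7 members tested in every line passed, of which GSTM3 met the filter in A549 only through its NRF2 siRNA libraries. Over all 11571 genes tested in every line, 0.544% passed this test as lower and 0.0951% as higher. With a pseudocount of 0.1 no member passed it. By library order alone, GSTP1 and MGST1 had both NRF2 siRNA libraries below both controls in all 3 lines, a pattern seen in 7.20% of those genes, and GSTK1 had the opposite order in all 3, as did 8.18% of genes.

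**Figure D1:**
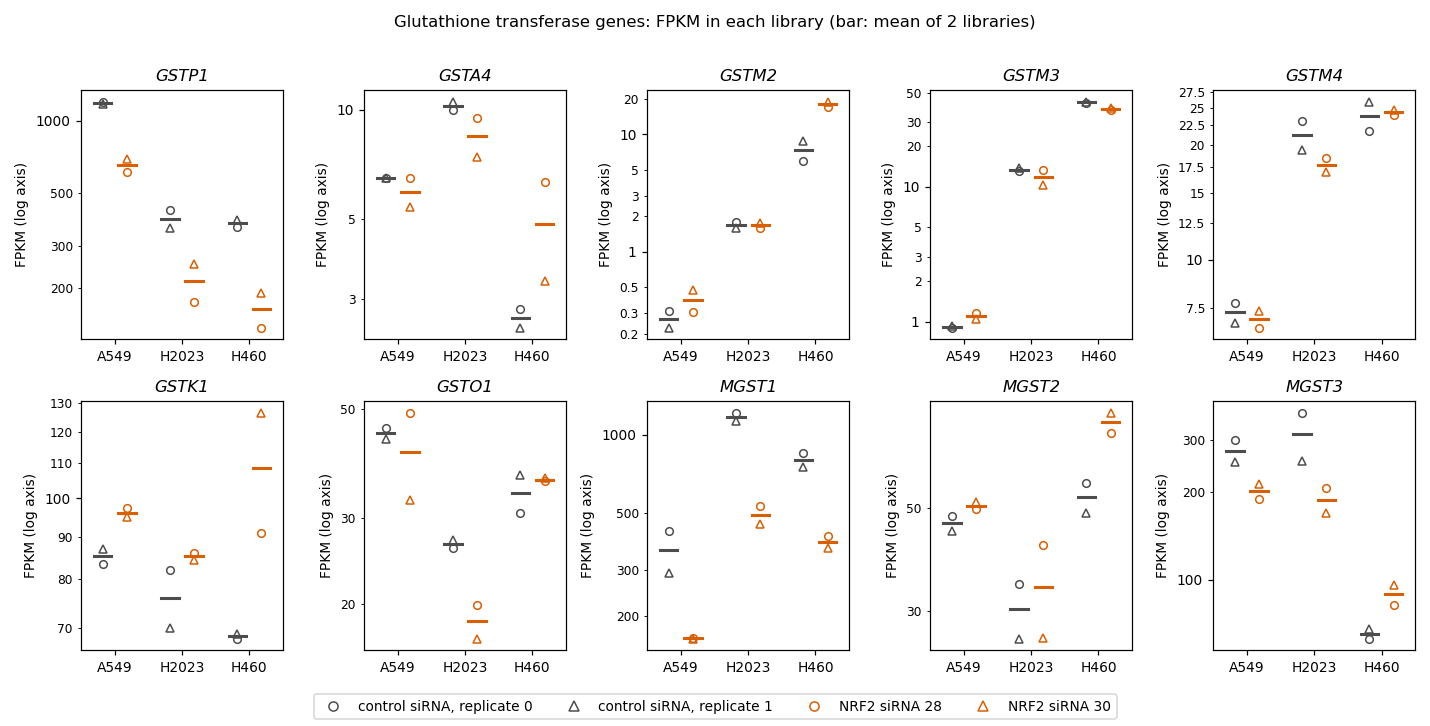
FPKM of the 10 genes in each library, 1 panel per gene, on log axes that differ between panels, with control siRNA in grey, NRF2 siRNA in orange, circles for replicate 0 (siRNA 28), triangles for replicate 1 (siRNA 30) and a bar at the mean of 2 libraries. GSTP1 and MGST1 are lower with NRF2 siRNA in all 3 lines, MGST3 is lower in A549 and H2023 and higher in H460, and GSTM2 in H460 goes from 5.96 and 8.79 to 17.1 and 18.98 FPKM.

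MGST3 (ENSG00000143198.8, chromosome 1, 165600450 to 165631033, plus strand) encodes a microsomal enzyme with transferase and peroxidase activity, and its direction differed between lines. A549 controls were at 301 and 252 FPKM and NRF2 siRNA libraries at 189 and 212 FPKM. H2023 went from 373 and 255 FPKM to 206 and 169 FPKM. H460 started far lower, at 62.8 and 67.6 FPKM, and stood at 82.2 and 95.8 FPKM with NRF2 siRNA. Both knockdown libraries were thus below both controls in A549 and H2023 and above both in H460. The log2 fold changes of -0.46 ± 0.16, -0.72 ± 0.24 and 0.44 ± 0.21 did not pass in any line (SE, limma adjusted p = 0.316, 0.231 and 0.202). With a replicate block the H2023 change did pass (limma adjusted p = 0.0467), among 711 genes. Over all alternatives run it ranged from -0.99 to -0.45. The difference in effect, H460 minus H2023, was 1.16 ± 0.29 (limma adjusted p = 0.0570) and H460 minus A549 0.90 ± 0.29 (adjusted p = 0.107), so the opposite directions were not separated at the threshold. In a fit of the 8 polyA libraries alone, added after the data were seen, the first difference had an adjusted p of 0.151.

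The last microsomal member, MGST2 (ENSG00000085871.4, chromosome 4, 140586922 to 140661899, plus strand), is a relative that can make cysteinyl leukotrienes. It was at 47.9 and 44.6 FPKM in A549 controls and 49.6 and 51.4 FPKM with NRF2 siRNA. H2023 libraries overlapped, with 34.3 and 26.1 FPKM in controls and 41.5 and 26.2 FPKM after knockdown. H460 held 56.4 and 48.8 FPKM in controls and 72.5 and 80.1 FPKM with NRF2 siRNA, without overlap. The log2 fold change in H460 was 0.53 ± 0.21 (SE, limma adjusted p = 0.140), and in A549 and H2023 it was 0.13 with adjusted p of 0.732 and 0.855.

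GSTM2 (ENSG00000213366.8, chromosome 1, 110210644 to 110252173, plus strand), a mu-class enzyme, was the only member that rose past the threshold in any line. In A549 it stayed between 0.226 and 0.473 FPKM and was not tested. H2023 held 1.79 and 1.59 FPKM in controls and 1.60 and 1.77 FPKM with NRF2 siRNA, without a shift. H460 controls held 5.96 and 8.79 FPKM against 17.1 and 18.98 FPKM, a log2 fold change of 1.205 ± 0.28 (SE, limma adjusted p = 0.0390). The difference in effect between H460 and H2023 was 1.21 ± 0.34 in the 8 libraries (limma adjusted p = 0.155). GSTM2 shares sequence with its neighbour GSTM1, and 10.5% of the 80-base windows of its transcripts also occur in GSTM1 transcripts, while 31% of GSTM1 windows occur in GSTM2. The annotated bounds of GSTM2 also span GSTM1. In H460 GSTM1 itself was at 45.4 and 52.7 FPKM in controls and 32.7 and 29.6 FPKM after knockdown, the opposite direction (log2 fold change -0.64 ± 0.22, limma adjusted p = 0.0961). The summed FPKM of both genes was 51.3 and 61.5 in controls and 49.8 and 48.5 with NRF2 siRNA, so the rise of GSTM2 was not matched by a rise of the pair. Whether reads were assigned differently between the paralogs was not tested, and the GSTM2 and GSTM1 values are uncertain for that reason.

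The remaining mu members did not pass in any line. GSTM3 (ENSG00000134202.6, chromosome 1, 110276554 to 110283660, minus strand) was at 0.901 and 0.922 FPKM in A549 controls and 1.148 and 1.05 FPKM with NRF2 siRNA. In H2023 it was 13.02 and 13.7 FPKM against 13.4 and 10.4 FPKM. In H460 the libraries held 41.9 and 42.8 FPKM against 36.9 and 38.1 FPKM. Its log2 fold changes were 0.13, -0.16 and -0.17, with limma adjusted p of 0.784, 0.742 and 0.607. The A549 value is a description only, since GSTM3 reached the filter of 1 FPKM there through its NRF2 siRNA libraries alone. GSTM4 (ENSG00000168765.11, chromosome 1, 110198721 to 110208118, plus strand), of whose 80-base windows 4.59% occur in other genes, was at 7.72 and 6.85 FPKM in A549 controls and 6.65 and 7.37 FPKM with NRF2 siRNA. H2023 had 23.1 and 19.4 FPKM against 18.4 and 17.0 FPKM, a pair below the controls. H460 libraries overlapped, with 21.8 and 25.9 FPKM in controls and 24.0 and 24.7 FPKM after knockdown. The GSTM4 log2 fold changes of -0.05, -0.25 and 0.03 had limma adjusted p of 0.923, 0.554 and 0.939.

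GSTA4 (ENSG00000170899.6, chromosome 6, 52842746 to 52860102, minus strand), an alpha-class enzyme that clears the lipid peroxidation product hydroxynonenal, was low throughout. A549 held 6.49 and 6.49 FPKM in controls and 6.50 and 5.37 FPKM with NRF2 siRNA. H2023 held 10.0 and 10.5 FPKM against 9.52 and 7.42 FPKM. H460 held 2.81 and 2.495 FPKM in controls, 6.32 FPKM with siRNA 28 and 3.37 FPKM with siRNA 30, a log2 fold change of 0.63 ± 0.33 that did not pass (SE, limma adjusted p = 0.237). Among the members in H460 the siRNAs stood farthest apart for this gene, with separate log2 fold changes of 1.004 and 0.26. In A549 and H2023 the log2 fold changes were -0.12 and -0.26 (limma adjusted p = 0.809 and 0.589).

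GSTO1 (ENSG00000148834.8, chromosome 10, 105995114 to 106027217, plus strand) encodes the omega-class enzyme, which removes glutathione from protein thiols and reduces dehydroascorbate. A549 held 45.7 and 43.5 FPKM in controls, and its NRF2 siRNA libraries lay on either side, at 49.2 and 32.7 FPKM. H2023 held 26.0 and 27.1 FPKM in controls and 19.9 and 17.0 FPKM after knockdown, without overlap. H460 held 30.7 and 36.7 FPKM against 35.6 and 36.2 FPKM. The H2023 log2 fold change was -0.50 ± 0.18 (SE, limma adjusted p = 0.252), and those of A549 and H460 were -0.15 and 0.09 (adjusted p = 0.812 and 0.800).

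GSTK1 (ENSG00000197448.9, chromosome 7, 142941186 to 142967947, plus strand), the kappa enzyme of mitochondria and peroxisomes, was the member above its controls in all 3 lines. A549 held 83.6 and 86.9 FPKM in controls and 97.3 and 94.9 FPKM with NRF2 siRNA. H2023 held 82.1 and 70.0 FPKM against 86.0 and 84.5 FPKM. H460 held 68.0 and 69.0 FPKM against 90.9 and 126.5 FPKM. The log2 fold changes were 0.17 ± 0.13, 0.17 ± 0.16 and 0.64 ± 0.24 (SE, limma adjusted p = 0.621, 0.650 and 0.121), and the average over the lines was 0.33 ± 0.18 (adjusted p = 0.318). In H2023 the value was 0.28 without control replicate 0, 0.05 without control replicate 1 and 0.26 when rescaled without mitochondrial genes, which gave 0.06 in A549.

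**Figure D2:**
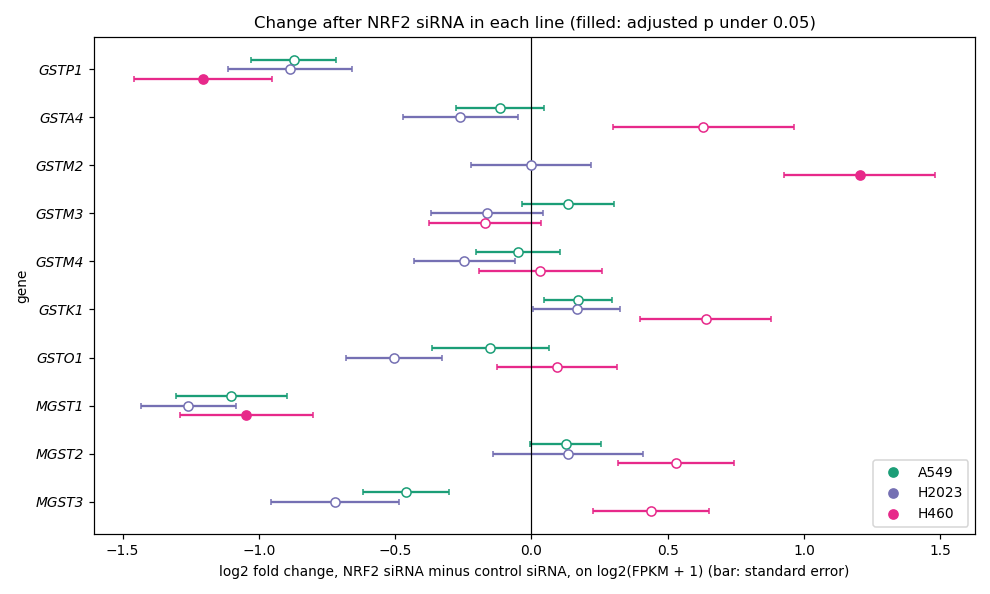
Log2 fold change of each gene, NRF2 siRNA minus control siRNA on log2(FPKM + 1), with its standard error, in A549 (green), H2023 (purple) and H460 (pink), each from 4 libraries. Filled points passed an adjusted p of 0.05, which are GSTP1 at -1.205, MGST1 at -1.05 and GSTM2 at 1.205 in H460, and GSTM2 in A549 is left out because it was under 1 FPKM.

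Read against all genes, the counts differed in weight between lines. In H460, where 2 members passed as lower and 1 as higher of 10, 6.86% of 13446 tested genes passed as lower and 7.12% as higher. In A549 0.554% of 13898 genes passed as lower and 0.122% as higher, and in H2023 0.583% and 0.327% of 14059 genes. Members with both knockdown libraries below both controls numbered 3 of 9 in A549, 6 of 10 in H2023 and 3 of 10 in H460, where 20.5%, 22.0% and 31.6% of all tested genes had that order. Members with both above numbered 3, 1 and 5, where 25.2%, 27.0% and 31.1% of genes did. The 3 in A549 include GSTM3, which reached 1 FPKM there only in its NRF2 siRNA libraries, so the filter itself set its place. The tested members had median log2 fold changes of -0.12 (A549), -0.25 (H2023) and 0.27 (H460), beside 0.02, 0.02 and -0.01 over all genes tested. Groups of 2 libraries give few possible orders, so non-overlap in 1 line is common among genes in general.

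Leaving out a library leaves an arm of 1 library and 1 residual degree of freedom, so the lone library is assumed to vary like the other arm, and a lost or gained call then says little about the effect. Without either H460 control library 0 members passed by limma and 1 gene passed in all, while the log2 fold changes were -1.26 and -1.15 for GSTP1, -0.95 and -1.14 for MGST1 and 0.96 and 1.45 for GSTM2. With no filter on low values 0 genes of any kind passed in H460. Without the siRNA 30 library only GSTP1 passed. In H2023, when a knockdown library was left out and the controls alone gave the spread, calls over all genes went from 128 to 1073 and 1039, and they included MGST1 without the siRNA 28 library (adjusted p = 0.0183), and GSTP1 and MGST1 without the siRNA 30 library (adjusted p = 0.0221 and 0.0362). When FPKM was rescaled without mitochondrial genes the H460 median over all genes shifted by 0.131 (log2), and it shifted by 0.104 with upper quartile scaling. GSTP1 and GSTM2 kept their H460 calls under both scalings, whereas MGST1, at -0.89 and -0.92, had an adjusted p of 0.0522 and 0.05004 and was not past. With the mitochondrial genes left out, 595 genes passed in H460 as lower and 1196 as higher, and with upper quartile scaling 729 and 1188, against 922 and 957 before. The keratin KRT8 also differed between the H460 groups, at 553 and 673 FPKM in controls and 990 and 1723 FPKM with NRF2 siRNA, though 0 of the 5 tested epithelial markers passed there. The fibroblast gene COL1A1 passed as higher in H460, at 1.81 and 2.06 FPKM in controls and 5.94 and 5.81 FPKM after knockdown, and in H2023 the epithelial gene CDH1 did. Their part in the results was not tested. Less RNA per cell and fewer cells of a kind cannot be told apart in such bulk libraries.

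A test of the difference in effect was run for the members with at least 1 FPKM in at least 2 libraries of every line, which GSTM3 met in A549 through its NRF2 siRNA libraries only. Of 9 tested members 0 passed the limma F test over the 3 lines, while 2.51% of 11571 genes passed, and 1 member and 21.2% of genes had an unadjusted p under 0.05. The pairwise differences likewise gave 0 members. Background shares were 3.13% for H460 minus A549, 3.32% for H460 minus H2023 and 0.00864% for H2023 minus A549, and the numbers of members at an unadjusted p under 0.05 were 1, 2 and 0, beside 22.5%, 22.5% and 5.21% of genes. In the 8 polyA libraries 0 of 10 members and 0.0161% of 12408 genes passed, and 3 members and 17% of genes had an unadjusted p under 0.05. Thus 0 members were shown to respond differently between lines. The standard errors of these differences were 0.24 to 0.35 over the members of the fit of 12 libraries, and the MGST3 difference of 1.16 did not pass.

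The control levels describe which of these transcripts each line held, and no protein was measured. In A549 controls GSTP1 led with a mean of 1189 FPKM, 3.32 times MGST1, which overlapped with MGST3, and GSTM2 was last. H2023 and H460 controls were led by MGST1, at means of 1172 and 799.7 FPKM, followed by GSTP1 at 389.7 and 372.9 FPKM. In H2023 GSTP1 and MGST3 overlapped, and so did MGST2 and GSTO1. In H460 no neighbours in the order overlapped between their control libraries, although GSTK1 and MGST3 differed by 1.05 times only.

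H460 and H2023 were prepared alike, so their control levels were tested. Of the 10 members 6 differed past the threshold, while 48.8% of 14039 genes did. GSTM2, GSTM3 and MGST2 were higher in H460, by 1.62 ± 0.23, 1.60 ± 0.14 and 0.79 ± 0.18 on the log2 scale (SE, limma adjusted p = 0.00307, 0.000551 and 0.0138). MGST3, GSTA4 and MGST1 were lower in H460, with log2 differences of -2.23 ± 0.20, -1.63 ± 0.18 and -0.55 ± 0.17 (adjusted p = 0.000667, 0.00134 and 0.0406). GSTP1, GSTM4, GSTK1 and GSTO1 did not pass, at -0.06 ± 0.16, 0.16 ± 0.17, -0.14 ± 0.14 and 0.33 ± 0.15 (adjusted p = 0.776, 0.466, 0.422 and 0.119). MGST1, GSTM2 and MGST2 were no longer past when 1 control library of H2023 was left out, whichever it was. The same held for MGST1 without either H460 control, for MGST2 without H460 control replicate 0, and for MGST1 and MGST2 with no filter on low values. Each of these fits without a library has 1 residual degree of freedom, and the differences kept their sign, from -0.65 to -0.46 for MGST1, 1.37 to 1.86 for GSTM2 and 0.60 to 0.98 for MGST2. GSTA4, GSTM3 and MGST3 remained past in all of these.

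Paralogs outside the list completed the picture of the family, 22 genes in all. Of these, 10 to 11 reached 1 FPKM in A549 libraries, 13 to 14 in H2023 and 15 in H460. GSTT1, a theta-class gene that is often deleted as a whole in people, was listed at 0 in all 4 A549 libraries. GSTM1, likewise subject to a common deletion, was at 0.0842 FPKM or below in A549 and 0.33 FPKM or below in H2023, and it was expressed in H460 alone. The sigma-class gene HPGDS, a prostaglandin D synthase, was also above 1 FPKM only in H460, at 4.52 and 3.43 FPKM in controls and 2.38 and 1.79 FPKM with NRF2 siRNA (log2 fold change -0.69 ± 0.28, limma adjusted p = 0.146). The alpha genes GSTA2, GSTA3 and GSTA5 stayed under 0.5 FPKM everywhere, and GSTA1 exceeded 1 FPKM in 1 library only, an H2023 control at 1.11 FPKM. GSTM5 reached 0.206 FPKM, and GSTT2 and GSTT2B, which share 77.3% and 82.5% of their windows with each other, reached 0.663 and 0.168 FPKM. Whether a gene near 0 was deleted or silent was not tested.

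Several expressed paralogs were above their controls after NRF2 siRNA. GSTT1 in H460 rose from 15.3 and 14.1 FPKM to 36.9 and 41.5 FPKM (log2 fold change 1.35 ± 0.22, limma adjusted p = 0.0215), and in H2023 it was at 11.2 and 11.1 FPKM against 13.3 and 17.7 FPKM (0.43 ± 0.21, adjusted p = 0.378). GSTZ1, the maleylacetoacetate isomerase of tyrosine breakdown, rose in H460 from 12.7 and 12.3 FPKM to 31.5 and 23.4 FPKM (1.06 ± 0.25, adjusted p = 0.0419). In A549 GSTZ1 was at 19.9 and 14.9 FPKM against 36.0 and 22.6 FPKM, and in H2023 at 14.7 and 12.6 FPKM against 16.8 and 16.2 FPKM, neither past the threshold (adjusted p = 0.349 and 0.533). GSTO2, the omega-class dehydroascorbate reductase, was higher without overlap in all 3 lines, as were 8.18% of genes, with log2 fold changes of 1.06 ± 0.27, 0.43 ± 0.20 and 0.72 ± 0.24 that did not pass (adjusted p = 0.223, 0.356 and 0.0927). Within the family list as a whole, 0 of 11 tested genes passed in A549, 0 of 13 in H2023, and 2 lower with 3 higher of 15 in H460. Over all genes tested the lower and higher shares were 0.554% and 0.122% (A549), 0.583% and 0.327% (H2023), and 6.86% and 7.12% (H460). The median of the list's log2 fold changes was -0.05, -0.16 and 0.44, beside 0.02, 0.02 and -0.01 over all genes.

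**Figure D3:**
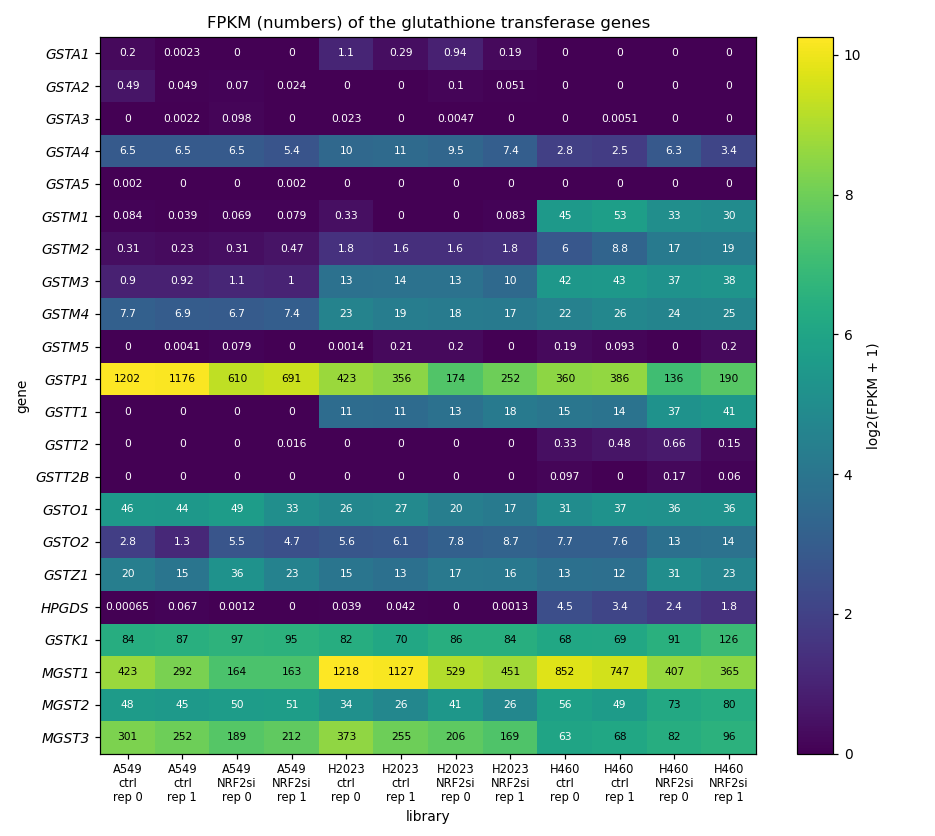
FPKM of all 22 glutathione transferase genes (rows, printed numbers) in the 12 libraries (columns), coloured by log2(FPKM + 1). GSTT1 is listed at 0 in A549, GSTM1 and HPGDS are expressed in H460, and GSTP1, MGST1 and MGST3 together hold most of the summed FPKM in every library. A549 was prepared by another protocol, so its colours are not to be compared in level with the other lines.

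Since a few genes carried most transcripts, the family total moved with them. Summed FPKM over the 22 genes was 2142 and 1926 in A549 controls and 1215 and 1286 with NRF2 siRNA. In H2023 it was 2237 and 1937 against 1139 and 1080, and in H460 1588 and 1526 against 1026 and 1090. The totals did not overlap between groups in any line. GSTP1, MGST1 and MGST3 together made 89.3% to 90.0% of the total in A549 and H2023 controls and 79.2% to 82.8% after knockdown, and 80.2% and 78.7% in H460 controls against 61.0% and 59.8% after knockdown. These sums weight each gene by its FPKM and were not tested.

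**Figure D4:**
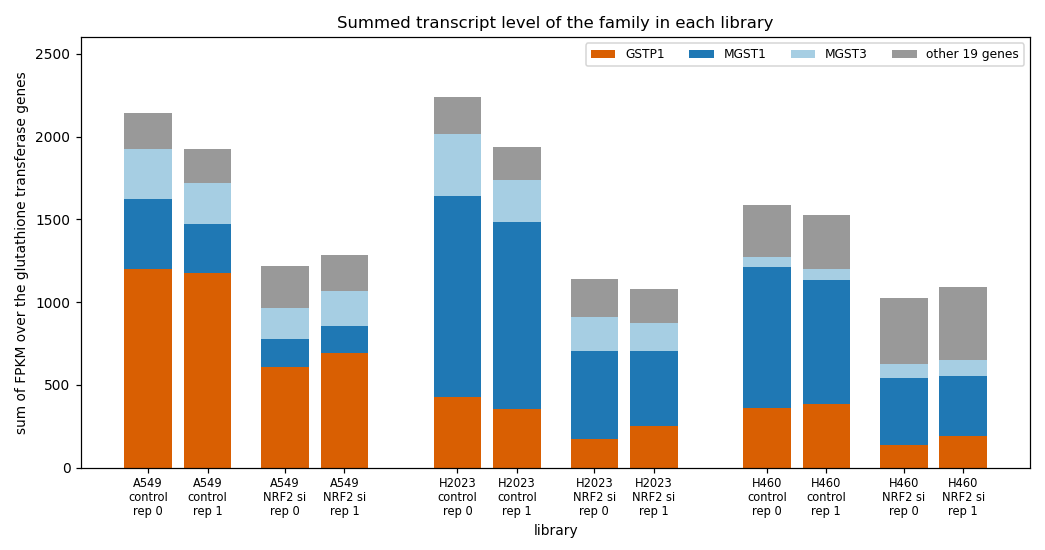
Sum of FPKM over the 22 glutathione transferase genes in each of the 12 libraries, split into GSTP1, MGST1, MGST3 and the other 19 genes. Totals run from 1526 to 2237 in control libraries and from 1026 to 1286 in NRF2 siRNA libraries, GSTP1 is the largest single gene in A549, and MGST1 is the largest single gene in H2023 and H460.

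The values behind each knockdown group were then split by siRNA. Comparing siRNA 28 with siRNA 30 in the 6 NRF2 siRNA libraries, with line as a covariate, 0 of 10 members and 0% of 15716 genes passed by limma, with 1 member and 2853 genes at an unadjusted p under 0.05. That member was GSTP1, which was 0.39 ± 0.14 lower on the log2 scale with siRNA 28 (SE, limma adjusted p = 0.225), and the sign held in each of the 3 lines. MGST1 differed by 0.13 ± 0.13 between the siRNAs (adjusted p = 0.613). GSTA4 was higher with siRNA 28, by 0.43 ± 0.18 (adjusted p = 0.292).

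**Figure D5:**
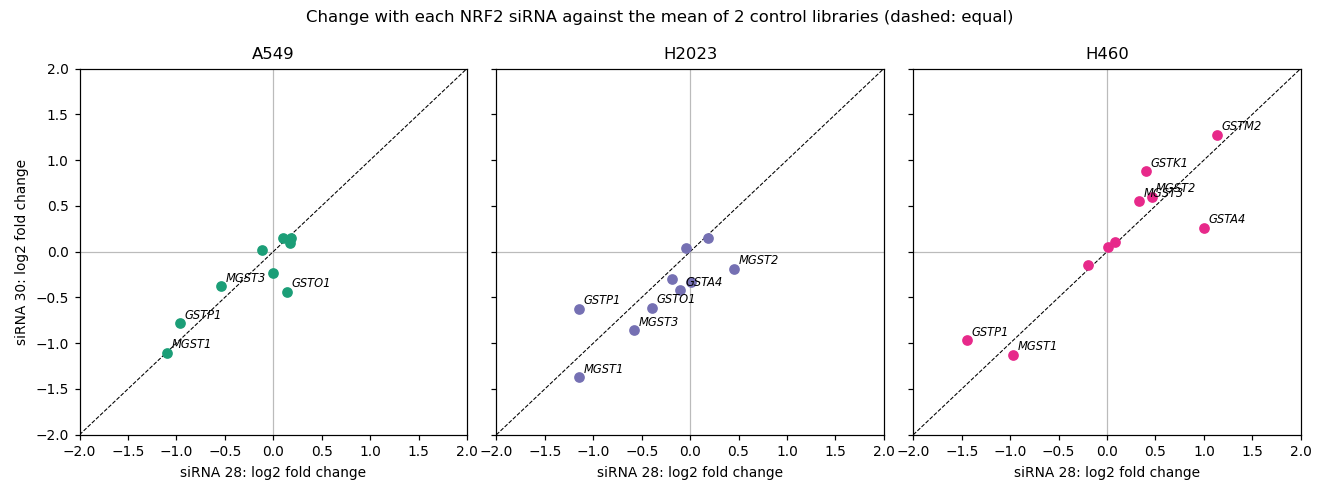
Log2 fold change of the tested members with siRNA 28 (horizontal axis) and with siRNA 30 (vertical axis), each library against the mean of the 2 controls of its line, on log2(FPKM + 1), with names shown for changes above 0.4. Points near the dashed line changed alike with both siRNAs, GSTP1 lies above the line in all 3 panels because siRNA 28 lowered it more, and both axes share the control libraries.

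The libraries were also used to find genes patterned like the members that passed. After subtracting the mean of each line on the log2 scale, the closest of 11570 genes to GSTP1 over 12 libraries were VCP, L3HYPDH and GLA, with Pearson r of 0.991, 0.985 and 0.984. MGST1 was closest to NRG4, NR0B1 and GCLC, at 0.992, 0.981 and 0.978, and GCLC encodes the catalytic subunit of the enzyme that limits glutathione synthesis. GSTM2 was not tested in every line and has no such list. Against NFE2L2 over the same libraries, r was 0.94 for GSTP1, 0.954 for MGST1, 0.38 for MGST3 and -0.70 for GSTK1. All points share libraries and the knockdown design, so these values are descriptions.

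The genes that supply, export and process glutathione are given for comparison. Of 7 genes of glutathione supply reported, 5 passed as lower in A549, 4 in H2023 and 6 in H460, where 0.554%, 0.583% and 6.86% of all genes did, and their median log2 fold change was -1.58, -2.07 and -2.10. GCLC fell in every line, with log2 fold changes of -2.33, -2.44 and -2.65, and so did its regulatory partner GCLM, at -2.73, -3.13 and -4.01. GSR, the glutathione reductase, fell as well, at -1.17, -2.001 and -1.85, while the synthetase GSS, at -0.04, 0.09 and 0.10, did not pass in any line. The cystine transporter SLC7A11 passed as lower in A549 and H460, its partner SLC3A2 in H460, and the NADPH-making enzyme PGD in every line. Beside those of GCLC, GCLM, GSR, SLC7A11 and PGD, the drops of GSTP1 and MGST1 were smaller in each line. SLC3A2, at -0.89, -0.75 and -1.58, fell less than MGST1 in A549 and H2023 and less than GSTP1 in H2023. No test of these contrasts was run.

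Genes of conjugate export and processing were read next. Of 17 genes, 11 were tested in A549, 12 in H2023 and 10 in H460. In A549 1 passed as lower and in H2023 1, both times ABCC2, a pump for glutathione conjugates, with log2 fold changes of -1.93 and -1.59 (limma adjusted p = 0.00378 and 0.0348), where 0.554% and 0.583% of all genes passed as lower. In H460 ABCC2 was at 46.5 and 40.0 FPKM in controls and 35.4 and 48.1 FPKM with NRF2 siRNA, and the effect differed between H460 and H2023 by 1.53 ± 0.25 (adjusted p = 0.0196). For ABCC4, a related pump that did not pass in any line, the same difference was -1.36 ± 0.26 (adjusted p = 0.0288). In H460 1 of the genes passed as higher, GGT7, a gamma-glutamyltransferase relative, at 1.70 ± 0.29 (adjusted p = 0.0224), as did 7.12% of all genes. ABCC1, another conjugate pump, passed the average over the 3 lines at -1.41 ± 0.18 (adjusted p = 0.0352) but no single line, and in H460 its log2 fold change was -2.62 with siRNA 28 and 0.01 with siRNA 30. Among the 3 relatives of the microsomal enzymes only PTGES, a prostaglandin E synthase, was tested, and its effect differed between H460 and H2023 by 1.69 ± 0.23 (adjusted p = 0.0144), although its own log2 fold changes of 0.17 (A549), -0.79 (H2023) and 0.90 (H460) did not pass. In the 8 polyA libraries alone these differences of ABCC2, ABCC4 and PTGES had adjusted p of 0.106, 0.135 and 0.0872. The GST-fold relatives (7 tested in A549 and 8 in each of H2023 and H460) and the 4 genes of glutathione breakdown had no member past the threshold in any line.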

How the data were processed

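RNA of the 12 libraries was sequenced strand-specifically. The study's methods name TopHat and Cufflinks on hg19, while the submitters' processing notes name STAR 2.5.3a, Cuffnorm and GRCh37.p13. The authors deposited 1 table of FPKM values per library, which account for the length of a transcript and the size of a library and share reads among similar transcripts by an estimate. They also deposited 3 tables of their own DESeq2 comparisons, which were not used. Counts and depth per library were not used here. Identifiers were matched to GENCODE names on GRCh37 (96.1% matched), and 12710 FPKM values under 1e-06 were set to 0.

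Each line was tested on log2(FPKM + 1) with limma 3.58.1 in R 4.3.3, two-sided, with a prior variance that followed mean expression, Benjamini-Hochberg adjustment over all genes and a threshold of 0.05. Genes needed an FPKM of at least 1 in at least 2 libraries of the fit. Fold changes on this scale understate low genes. Controls are biological duplicates per the study's methods, and the NRF2 siRNA libraries differ by siRNA. Tests of the difference in effect used 6 group means of all 12 libraries, and control levels of H460 and H2023 were tested on their 4 control libraries. All 10 members and every gene of the family list were named, and other lists by genes past the threshold, of which 1 is not reported here. Members, lists and tests were chosen with earlier results of these data known. The functions were tested on simulated data. Alternatives were another pseudocount, no filter, no trend, 2 scalings, a replicate block, 1 fit of 12 libraries and leaving out each library. Shared windows of 80 bases were counted over GENCODE transcripts.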

Additional observations from a re-analysis of the deposited data

How the results depend on the processing

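The deposited values allow 2 libraries a group, so the error of each line rests on 2 residual degrees of freedom, and the total of calls moved with the setting. With no filter on low values 0 genes passed in A549, H2023 or H460 (94, 128 and 1879 before), and 0 members in H460. Without the trend H2023 had 79 genes. One fit of 12 libraries gave 1 member (MGST1) and 140 genes in A549 and 2 members (GSTP1 and MGST1) and 748 genes in H2023. In H460 it gave 4 members and 4585 genes. GSTK1 passed in H460 in that fit and without the siRNA 28 library. MGST1 alone of the members passed in H2023 with either scaling, among 143 genes without mitochondrial genes and 128 with upper quartile scaling. With a pseudocount of 0.1, 0 members passed on average over the 3 lines.

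Replicate numbers were not taken to pair the libraries, since same-numbered libraries did not deviate together in every line. Deviations of same-numbered libraries correlated at -0.0321 in A549, 0.312 in H2023 and 0.163 in H460. A replicate block gave 2 members (MGST1 and MGST3) and 711 genes in H2023 and 3177 genes in H460, and it changed no other member call.

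Leaving out 1 library gave 46 to 120 genes in A549, 0 to 2 members and 0 to 1073 genes in H2023, 0 to 4 members and 1 to 2810 genes in H460, and 3 to 5 members between the controls of H2023 and H460. Log2 changes near 0 turned sign when 1 library was left out. In A549 they ran from -0.23 to 0.0015 for GSTA4, -0.12 to 0.027 for GSTM4 and -0.44 to 0.14 for GSTO1. In H2023 they ran from -0.054 to 0.050 for GSTM2 (0.066 without mitochondrial genes), -0.33 to 0.0059 for GSTM3 and -0.19 to 0.46 for MGST2. In H460 they ran from -0.089 to 0.15 for GSTM4 and -0.031 to 0.22 for GSTO1. None of these passed a test, and the cause was not tested. GSTP1, MGST1, MGST3 and GSTK1 kept their direction in every line under all alternatives run.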
